A study of Gallus gallus with 4 samples.

Results

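Cytosolic ribosomal protein genes were followed across 4 RNA sequencing libraries of whole chick (Gallus gallus) embryos. They are the genes whose symbol has the form RPL, RPLP, RPS or RPSA with its number and at least 20 reads summed over the libraries. The rule found 52 genes of 13081 in the count table, 33 of the large subunit (60S) and 19 of the small subunit (40S), and no name occurred on more than 1 row. All 52 passed the read minimum; the lowest, RPL3L, had 26, 25, 19 and 39 reads in the combination, thalidomide, spermine NONOate and control libraries, while the next lowest count of any member was 11497 reads, for RPS27L with thalidomide. Embryos were treated at Hamburger-Hamilton stage 8 and collected whole on day 6. The combination group was given both agents, thalidomide (40 µg/ml) and spermine NONOate (10 µM). Each single-agent group was given 1 of them at the same concentration, and the control group DMSO. Thalidomide acts through the ubiquitin ligase receptor cereblon and causes limb and other birth defects, while spermine NONOate is a donor of nitric oxide. Each group is 1 library, and how many embryos a library holds is not given in the sources used here. No comparison of 2 libraries therefore has a replicate check, and every interval of a ratio below is a 95% exact counting interval, which covers counting error only.

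A ribosome is built from ribosomal RNAs and a set of small basic proteins, nearly all present in a single copy per particle. The genes for these proteins are transcribed at high and balanced rates in all cells, and their mRNAs begin with a pyrimidine tract (the TOP motif) through which mTOR and LARP1 govern their translation and stability. In human patients, loss of 1 copy of any of several of these genes causes Diamond-Blackfan anaemia, a failure of red cell formation often joined by limb and facial defects. The members lie on 20 chromosomes of the galGal4 build, with 9 on chromosome 1 and 7 on chromosome 2. The table gives a chromosome and strand for each gene and no start or end, and no sequence of these genes was used here. Some well-known ribosomal protein genes, among them RPS6, RPL11 and RPS19, had no row under these symbols and were not analysed here. Read shares and subunit read ratios below therefore cover the 52 members and not every ribosomal protein gene.

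The libraries held 72309065 reads in genes for the combination, 66889240 for thalidomide, 62576258 for spermine NONOate and 79359076 for control. Markers of heart, nerve cells, lens, skeletal muscle, cartilage, liver, red cells and leukocytes were all detected in each library, as the label whole embryo asks. Levels are CPM, read counts divided by TMM-scaled library size. The read counts are not divided by gene length, so levels are set side by side between libraries for the same gene and not between genes. In whole embryos, fewer cells of a type and less RNA per cell cannot be told apart.

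Ribosomal protein mRNAs were lower in both libraries that had received thalidomide. The 52 genes together took 5.29% of all reads in genes in the combination (Wilson 95% interval 5.28 to 5.30) and 5.50% with thalidomide alone (5.49 to 5.50). With spermine NONOate alone they took 9.49% (9.49 to 9.50), and in control 9.62% (9.61 to 9.63). The median member had 774 CPM in the combination and 828 CPM with thalidomide, against 1633 CPM with spermine NONOate and 1698 CPM in control. For 51 members both thalidomide libraries lay below both libraries without the drug. Over all 12090 genes with 20 reads in at least 2 libraries, 33.2% had this order. The exception was RPL3L, at 0.335 CPM in the combination and 0.354 CPM with thalidomide, against 0.316 CPM with spermine NONOate and 0.535 CPM in control.

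An additive fit over the 4 libraries (edgeR's quasi-likelihood test, 1 residual degree of freedom, Benjamini-Hochberg adjustment over 12090 genes) called 50 of 52 members lower with thalidomide and none higher. The same fit called 14.9% of all genes lower and 17.6% higher. The median member had a log2 difference of -0.99, whereas the median of all genes was -0.01. Adjusted p-values of the 50 genes in this fit ran from 8.09e-16 for RPL29 to 0.000153 for RPL22 and RPL3. The members it did not call were RPL7L1, with a log2 difference of -0.44 ± 0.18 (SE, edgeR adjusted p = 0.0525), and RPL3L, at -0.27 ± 0.58 (edgeR adjusted p = 0.758). The spread in this fit comes from the departure of the 4 libraries from additivity, estimated with all genes together. A member's SE therefore does not follow its own departure. RPL3 departed by 0.007 and RPL15 by 0.647 on the log2 scale, with SEs of 0.16 and 0.17. The spread is also not one between embryos of a group.

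**Figure D1:**
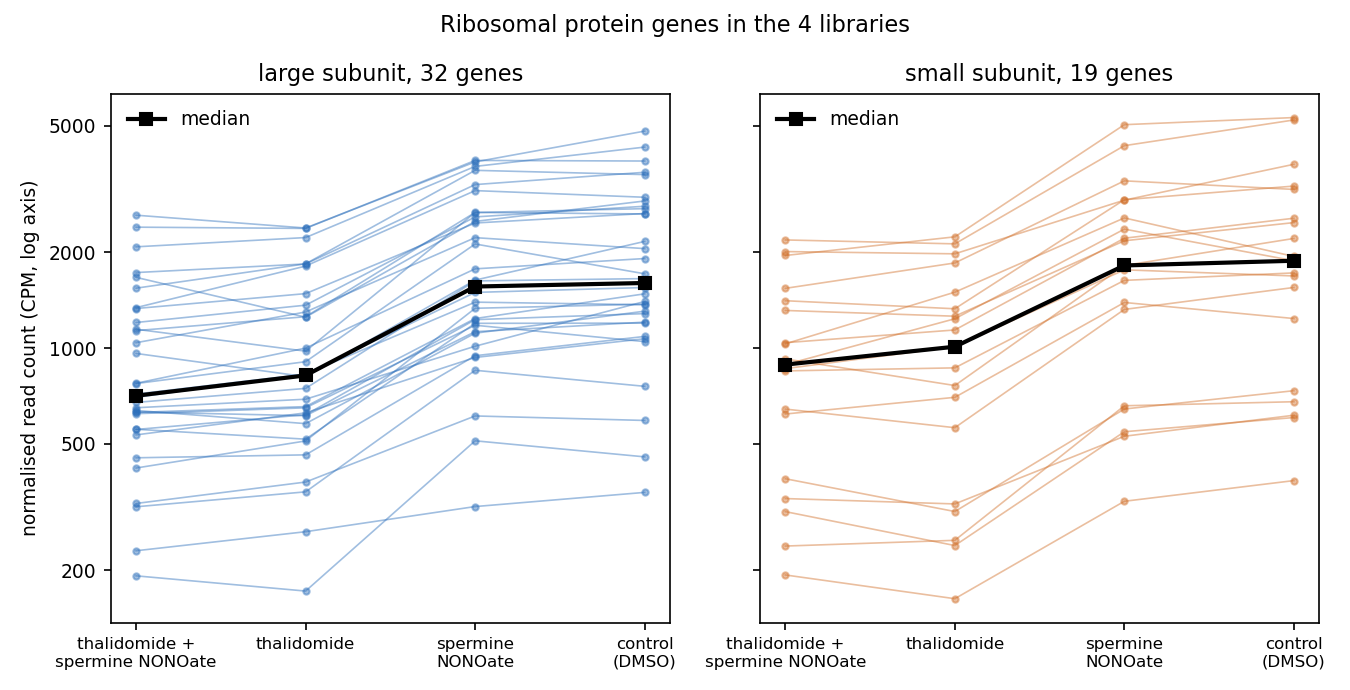
Normalised read counts (CPM, log axis) of 51 members in each library, with RPL3L left out because of its low reads. Each thin line is 1 gene and the black squares are the subunit's median. Both medians are lower in the 2 libraries with thalidomide than in the 2 without.

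The drug can be compared with its absence in pairs that share no library: thalidomide against control, and the combination against spermine NONOate. A gene was called by size where the fold was at least 2 with 0.5 reads added to each count, the higher library had at least 20 reads and the counting interval excluded 1. In thalidomide against control 26 of 52 members were called lower and none higher, where the rule called 7.23% of 12138 genes lower and 9.22% higher. All 52 log2 ratios were below 0, as were 50.6% of all genes, and the median was -1.002, with the quartiles at -1.23 and -0.81. In the combination against spermine NONOate 26 members were again called lower and none higher, beside 6.03% of 12161 genes lower and 9.84% higher. There 51 members were below 0, as were 49.4% of all genes, and the median was -1.01. Set against control, the combination had 32 members called lower and none higher (4.16% of 12176 genes lower, 10.1% higher), at a median of -1.07. All 52 were below 0 there, as were 50.1% of all genes. That comparison shares a library with each of the other pairs. In the pairs without a shared library, 15 of 52 members (28.8%) were called lower in both, as were 2.23% of 12026 genes.

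Since the median member sits on the 2-fold line, these counts depend on how libraries are scaled. In thalidomide against control 16 members had a log2 ratio within 0.1 of -1, and in the combination against spermine NONOate 15 did. With total counts in place of TMM the median of all genes moved by 0.20 and 0.16. In these pairs 16 and 15 members were then called lower, beside 4.61% and 3.85% of all genes. The share of higher genes among all called genes then moved to 74.9% and 77.7%, against 56.0% and 62.0% under TMM. Under each of the 6 scalings run, every member stayed below 0 in thalidomide against control, and 51 did in the combination against spermine NONOate. A scaling shifts all genes of a comparison alike. In thalidomide against control the highest member was at -0.37, so a shift of 0.20 could change no sign there. Other genes above a cut on reads did not, as a class, lie as low. The 1485 other genes with 40000 reads or more in all had medians of -0.08 and -0.07 in these pairs, with 3.37% and 3.97% called lower. This cut on reads was chosen after the data were seen. It lay below the summed reads of most members, so these genes were not matched to the members in level.

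**Figure D2:**
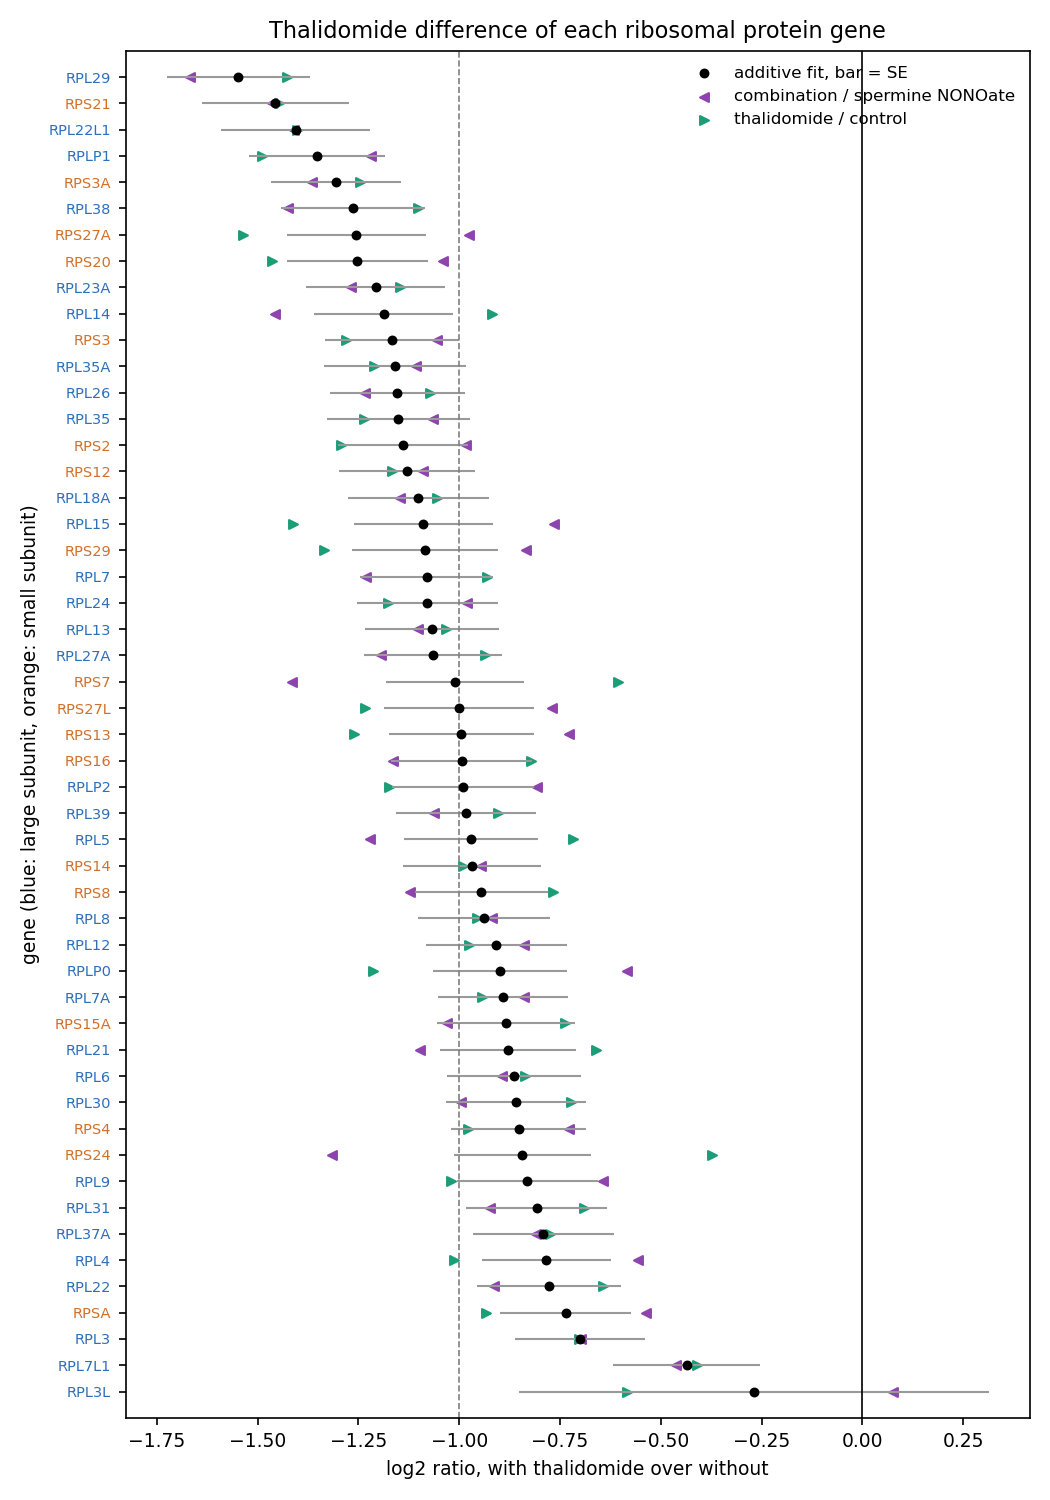
Log2 ratio, with thalidomide over without, of 51 of the 52 members. Black points are the additive fit with its SE, purple triangles the combination over spermine NONOate, and green triangles thalidomide over control; the dashed line marks a 2-fold lower level. Among the black points RPL29 and RPS21 lie furthest left, and all members shown but RPL3L are below 0 in both pairs.

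In the large subunit, RPL29, a surface protein of the 60S particle, had 420 CPM in the combination and 510 CPM with thalidomide, against 1333 CPM with spermine NONOate and 1373 CPM in control. Its additive log2 difference was -1.55 ± 0.18 (SE, edgeR adjusted p = 8.09e-16). It was 3.18-fold lower in the combination than with spermine NONOate and 2.69-fold lower with thalidomide than in control. RPL38, which in mouse is needed for translation of a subset of Hox mRNAs, had 317 CPM in the combination and 353 CPM with thalidomide, against 851 CPM with spermine NONOate and 758 CPM in control. The additive difference of RPL38 was -1.26 ± 0.18 (edgeR adjusted p = 1.7e-10). RPL23A and RPL26, which lie together at the mouth of the peptide exit tunnel, were close to each other, at -1.21 ± 0.17 and -1.15 ± 0.17. RPL39, a small protein of the exit tunnel wall, was lower by a similar amount (-0.98 ± 0.17), and it passed the rule of size in the combination against spermine NONOate at -1.06 but not in thalidomide against control at -0.90. RPL4 and RPL3 reach into the core of the particle, RPL4 to the tunnel and RPL3 towards the peptidyl transferase centre. RPL3 had the smallest additive difference of the 50 called genes (-0.70 ± 0.16), and its ratios in the pairs differed by less than counting error (-0.70 in both).

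RPL5 carries the 5S ribosomal RNA into the large subunit and, when unassembled, binds the p53 regulator MDM2. It had 1340 CPM in the combination and 1810 CPM with thalidomide, against 3125 CPM with spermine NONOate and 2978 CPM in control. The log2 ratio was -1.22 (-1.23 to -1.21) in the combination against spermine NONOate and -0.72 (-0.73 to -0.71) in thalidomide against control. RPL35A, whose gene is mutated in some human patients with Diamond-Blackfan anaemia, was lower by -1.11 and -1.21 in the same pairs. Of 16 genes mutated in human Diamond-Blackfan anaemia, 8 were found, and the additive fit called all 8 lower: RPL5, RPL15, RPL26, RPL31, RPL35A, RPS7, RPS24 and RPS29. All 8 are members, and that fit called 50 of 52 members lower, beside 14.9% of all genes. The median log2 difference of the 8 in that fit was -1.05, against -0.99 for all members.

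The P stalk recruits elongation factors to the ribosome and is made of the scaffold RPLP0 and the acidic proteins RPLP1 and RPLP2. RPLP1 had 1146 CPM in the combination and 978 CPM with thalidomide, against 2667 CPM with spermine NONOate and 2742 CPM in control. It passed the rule of size in both pairs, at -1.22 and -1.49. RPLP0 had 1668 CPM in the combination and 1250 CPM with thalidomide, against 2500 CPM with spermine NONOate and 2899 CPM in control. In thalidomide against control RPLP0 was called lower at -1.21 (-1.22 to -1.20), and in the combination against spermine NONOate it was at -0.58 (-0.59 to -0.57), short of the rule. RPLP2 had 636 CPM in the combination and 579 CPM with thalidomide, against 1113 CPM with spermine NONOate and 1306 CPM in control, and passed the rule in thalidomide against control and not in the combination against spermine NONOate. All 3 stalk genes were lower in the additive fit, by -1.35 ± 0.17 for RPLP1, -0.99 ± 0.18 for RPLP2 and -0.90 ± 0.17 for RPLP0 (edgeR adjusted p = 2.13e-13, 4.62e-07 and 1.76e-06).

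In the small subunit, RPS21 had 239 CPM in the combination and 249 CPM with thalidomide, against 658 CPM with spermine NONOate and 678 CPM in control. Its log2 ratios were -1.46 and -1.45 in the pairs, which differed by less than counting error, and the additive difference was -1.46 ± 0.18 (edgeR adjusted p = 2.01e-13). RPS3A and RPS2 had the most reads of all members in control, 386544 and 379849. RPS3A had 1954 CPM in the combination and 2236 CPM with thalidomide, against 5035 CPM with spermine NONOate and 5302 CPM in control, an additive difference of -1.31 ± 0.16. RPS27A is made as a fusion with ubiquitin, so its mRNA also supplies ubiquitin. It was the lowest member in thalidomide against control, 2.90-fold lower with a log2 ratio of -1.54 (-1.55 to -1.52). RPS27A had 924 CPM in the combination and 762 CPM with thalidomide, against 1818 CPM with spermine NONOate and 2210 CPM in control, and in the combination against spermine NONOate it was at -0.98 (-0.99 to -0.96), just short of the rule. RPS20, which sits in the head of the 40S particle, followed the same order of libraries, with 643 CPM in the combination and 562 CPM with thalidomide against 1322 CPM with spermine NONOate and 1550 CPM in control. RPSA, also known as a laminin receptor precursor, was among the least lowered in the combination against spermine NONOate, at -0.54, and was at -0.94 in thalidomide against control, near the members' median.

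The members include 4 paralogs, RPL22L1, RPL7L1, RPL3L and RPS27L. RPL22L1, a close relative of RPL22 that can take its place in the 60S particle in mouse, had 192 CPM in the combination and 172 CPM with thalidomide, against 511 CPM with spermine NONOate and 455 CPM in control. It was lower by -1.41 ± 0.18 in the additive fit (edgeR adjusted p = 3.97e-12). RPL22 itself was lower by -0.78 ± 0.18, with 325 CPM in the combination and 379 CPM with thalidomide, against 612 CPM with spermine NONOate and 592 CPM in control. RPL22L1 thus lay further below its level without the drug than RPL22 in both pairs, by -1.41 against -0.91 in the combination against spermine NONOate and by -1.40 against -0.64 in thalidomide against control. RPS27L, induced by p53 in human cells, had 194 CPM in the combination and 163 CPM with thalidomide, against 330 CPM with spermine NONOate and 383 CPM in control, an additive difference of -1.001 ± 0.19 (edgeR adjusted p = 1.76e-06). RPL7L1, whose yeast relative is a nucleolar assembly factor for the large subunit, had 231 CPM in the combination and 265 CPM with thalidomide, against 317 CPM with spermine NONOate and 352 CPM in control. Reads of similar sequences can be split between paralogs in counting. How far this touched RPL22 and RPL22L1, or RPL3 and RPL3L, was not tested, as no sequence was used. RPL3L had at most 39 reads in a library and RPL3 at least 167693, so little of RPL3's count can have been assigned to RPL3L.

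The rest of the members picked out by the extremes of a comparison or by their reads were of both subunits. RPL4 had 2615 CPM in the combination and 2383 CPM with thalidomide, against 3846 CPM with spermine NONOate and 4806 CPM in control, with log2 ratios of -0.56 in the combination against spermine NONOate and -1.01 in thalidomide against control. RPS2, a 40S protein near the mRNA entry channel, had 2186 CPM in the combination and 2125 CPM with thalidomide, against 4326 CPM with spermine NONOate and 5210 CPM in control. Its ratios in those pairs were -0.98 and -1.29. RPL7A, another abundant 60S gene, was short of 2-fold in both pairs, with 2080 CPM in the combination and 2224 CPM with thalidomide, against 3723 CPM with spermine NONOate and 4281 CPM in control. RPL9, which lies at the base of the P stalk, had 649 CPM in the combination and 690 CPM with thalidomide, against 1013 CPM with spermine NONOate and 1401 CPM in control. The level with spermine NONOate alone lay between those of the thalidomide libraries and control for RPL9, as it did for RPL4, RPS2 and RPL7A. The ratio of RPL9 was -1.02 in thalidomide against control and -0.64 in the combination against spermine NONOate. RPL21 and RPL31, of the large subunit, were among the least lowered in thalidomide against control, at -0.66 and -0.69. RPL21 nevertheless passed 2-fold in the combination against spermine NONOate at -1.10, with 1039 CPM in the combination, 1298 CPM with thalidomide, 2223 CPM with spermine NONOate and 2054 CPM in control.

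Both subunits were lower with thalidomide. Large subunit genes had a median log2 ratio of -0.98 and small subunit genes of -1.17 in thalidomide against control, with 16 of 33 and 10 of 19 called lower. In the combination against spermine NONOate the medians were -0.99 and -1.03, again with 16 and 10 called, and in the combination against control -1.11 and -1.02, with 22 and 10 called. By medians the large minus small subunit difference was 0.1898, 0.037 and -0.0865 in these comparisons, and by means it was 0.089, 0.0279 and 0.0214, so its sign in the combination against control depends on the summary used. Reads of the large subunit genes were 1.63 times those of the small subunit genes in the combination and in the thalidomide library, 1.56 times with spermine NONOate and 1.56 times in control. Genes of 1 subunit are not replicates of a condition, so no test was made of these differences. Within the large subunit the SD of the log2 ratios was 0.26 in thalidomide against control and 0.34 in the combination against spermine NONOate, and within the small subunit 0.32 and 0.26. Of the 51 members over 1000 reads, none had a counting interval that wide. The large subunit SDs also include RPL3L, which had few reads. Its log2 ratio was 0.08 (-0.82 to 1.02) in the combination against spermine NONOate. Without the 4 paralogs, the SD over both subunits together was 0.27 in thalidomide against control and 0.26 in the combination against spermine NONOate.

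Ribosomal protein genes were near control with spermine NONOate alone. By the rule of size no member was higher or lower, where 4.33% of 12066 genes were higher and 1.33% lower, and the median was -0.10 beside -0.05 for all genes. There 36 of 52 members were below 0, as were 56.2% of all genes. The additive fit for spermine NONOate called none of the 52 members by edgeR (2.03% of all genes were higher and 0.199% lower); no member had an unadjusted p under 0.05 there, and DESeq2 called none. In the combination against thalidomide no member was called either (3.74% of 12154 genes higher, 1.26% lower), at a median of -0.09. The extremes with spermine NONOate alone were RPL9 at -0.47 (-0.48 to -0.45), RPL15 at -0.40 and RPSA at -0.37 below control, and RPS24 at 0.40 (0.39 to 0.41), RPS7 at 0.33 and RPL14 at 0.31 above it. In the combination against thalidomide the extremes were RPS24 at -0.54 (-0.55 to -0.53), RPS7 at -0.48 and RPL5 at -0.43, and on the other side RPLP0 at 0.42 (0.40 to 0.43), RPS29 at 0.35 and RPS13 at 0.34.

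RPS24 and RPS7 were the highest members in 1 of those comparisons and the lowest in the other. RPS24, a 40S protein needed for pre-ribosomal RNA processing in human cells, had 1031 CPM in the combination and 1498 CPM with thalidomide, against 2564 CPM with spermine NONOate and 1940 CPM in control. RPS24 was 2.49-fold lower in the combination than with spermine NONOate, but 1.29-fold lower with thalidomide than in control. The latter was the smallest decrease in that comparison of any member over 100 reads. The difference of those log2 ratios was -0.94 (-0.96 to -0.93; intervals of such differences are normal approximations for counting error). RPS7, also a 40S protein with a part in pre-ribosomal RNA processing, had 887 CPM in the combination and 1236 CPM with thalidomide, against 2365 CPM with spermine NONOate and 1881 CPM in control. Its difference was -0.81 (-0.83 to -0.79). RPL14 had 773 CPM in the combination and 906 CPM with thalidomide, against 2123 CPM with spermine NONOate and 1711 CPM in control, a difference of -0.54.

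**Figure D3:**
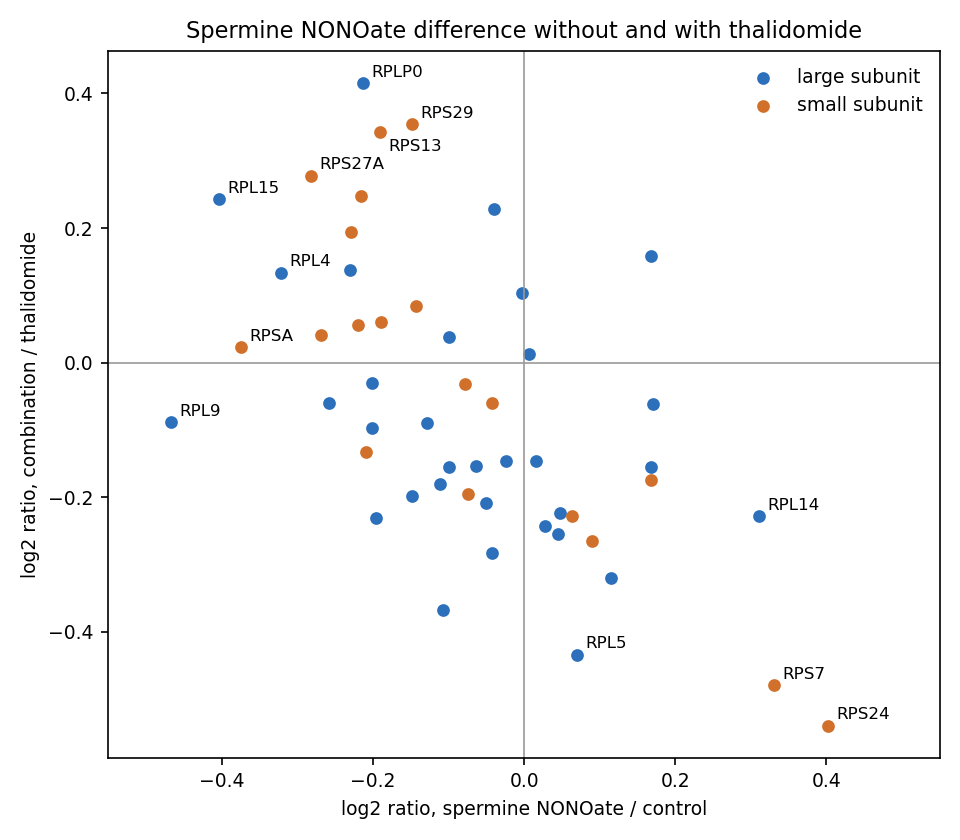
Log2 ratio of 51 members (RPL3L left out) in spermine NONOate over control on the horizontal axis and in the combination over thalidomide on the vertical axis; no library is in both. Each point is 1 gene, blue for the large and orange for the small subunit. RPS24 and RPS7 lie at the lower right and RPL15, RPLP0 and RPS27A at the upper left.

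The genes at the other end were RPL15, a large subunit protein, and RPLP0, RPS27A, RPS13, RPS29, RPS27L and RPL4. RPL15 had 962 CPM in the combination and 813 CPM with thalidomide, against 1635 CPM with spermine NONOate and 2163 CPM in control. The thalidomide ratio of RPL15 was -0.77 in the presence of spermine NONOate and -1.41 in its absence, a difference of 0.65 (0.63 to 0.67). RPS13 had 388 CPM in the combination and 306 CPM with thalidomide, against 643 CPM with spermine NONOate and 734 CPM in control, a difference of 0.53 (0.50 to 0.56). Over the 52 members, the counting interval of this difference was above 0 for 24 (46.2%) and below 0 for 24 (46.2%). Of all 12090 genes 39.9% were above and 33.7% below, and of the 1485 other abundant genes 48.8% and 41.1%, so at this depth such intervals exclude 0 for most abundant genes, ribosomal or not. Across the 51 members with 1000 reads or more, ratios in spermine NONOate against control and in the combination against thalidomide had a Pearson correlation of -0.59 (Spearman -0.61). That is a description over genes that share libraries and are not independent. Ratios in thalidomide against control and in the combination against spermine NONOate had a Pearson correlation of 0.16 (Spearman 0.10) over the same genes.

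The same counts can be given as the share of the members' reads that each gene takes, which no scaling between libraries can change. The shares restate the values above in another form and are no separate check. RPS24 took 2.09% of the members' reads in the combination and 2.87% with thalidomide, 2.60% with spermine NONOate and 1.85% in control. Its share was thus higher with either agent alone than in control, and lower in the combination than with either. RPLP0 took 3.38% in the combination and 2.40% with thalidomide, 2.53% with spermine NONOate and 2.77% in control. The share of RPLP0 was lower with either agent alone than in control, and higher in the combination than with either. The shares of RPL29 and RPS21 were lower in both thalidomide libraries. RPL29 took 0.851% of the members' reads in the combination and 0.979% with thalidomide, against 1.35% with spermine NONOate and 1.31% in control. RPS21 took 0.484% in the combination and 0.477% with thalidomide, against 0.667% with spermine NONOate and 0.648% in control. RPL3 took a larger share there, 4.87% in the combination and 4.56% with thalidomide, against 3.94% with spermine NONOate and 3.70% in control.

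**Figure D4:**
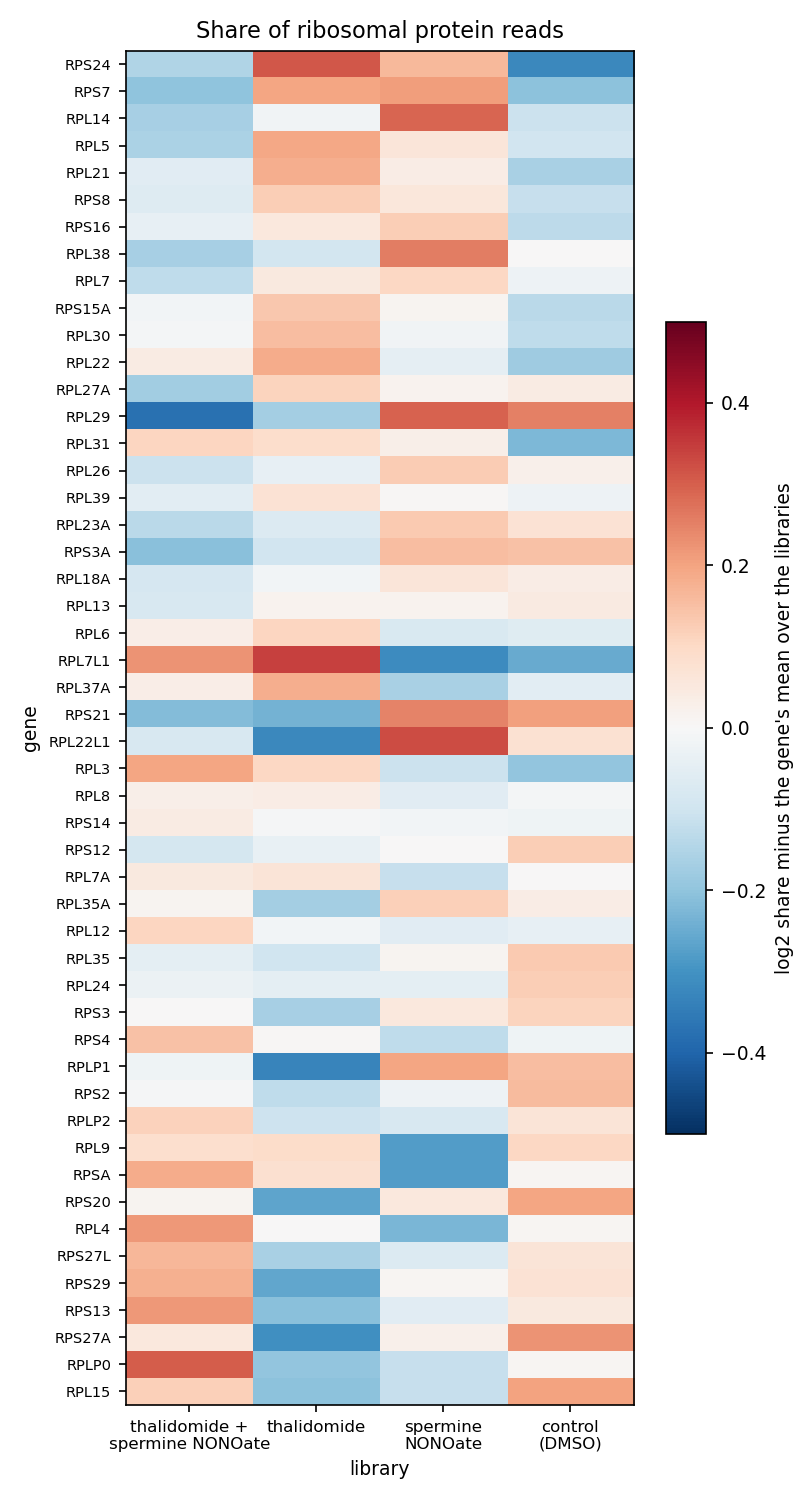
Share of the members' reads taken by each of 50 members in each library, as log2 share minus the gene's mean over the 4 libraries, ordered by the difference of the thalidomide ratios with and without spermine NONOate. RPS24 and RPS7 at the top are red in both single treatments and blue in the combination and in control, and RPLP0 near the foot is red in the combination and blue in both single treatments.

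Other genes of protein synthesis were lower to different extents. A list of elongation factor genes also held TPT1, which is not named as such a factor. Of 7 genes found from it, the additive fit called 6 lower and none higher, at a median of -0.77. TPT1, which has a TOP mRNA as ribosomal protein genes do, had 1287 CPM in the combination and 1200 CPM with thalidomide, against 2586 CPM with spermine NONOate and 2460 CPM in control (-1.02 ± 0.17, edgeR adjusted p = 4.46e-08). EEF1A, the factor that brings aminoacyl-tRNA to the ribosome, was lower by -0.53 ± 0.14 (edgeR adjusted p = 0.00114). GNB2L1, which encodes the 40S-bound scaffold RACK1, was lower by -0.85 ± 0.17. Among 53 mitochondrial ribosomal protein genes, 41 were called lower and none higher, at a median of -0.62; 52 of 53 were below 0 in thalidomide against control, and the exception was MRPL22 at 0.09. Their medians in the combination against spermine NONOate and in thalidomide against control were -0.71 and -0.55, short of those of the cytosolic members in each.

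Genes with the name pattern of initiation factors (EIF) were mixed, with 13 of 34 called lower and 3 higher in the additive fit (median -0.38). EIF3E, a subunit of the factor that joins the 40S particle to mRNA, was lower by -0.85 ± 0.18, and the scaffold gene EIF4G3 was higher by 0.86 ± 0.19 (edgeR adjusted p = 6.41e-05). The highest gene the name pattern caught, EIF2C2 at 2.03 ± 0.27, is counted among these 34 but encodes an Argonaute protein and no initiation factor. Genes for assembly of ribosomes stood nearer to all genes than the members did: 5 of 52 were called lower and 3 higher in that fit, at a median of -0.15. NPM1, a nucleolar chaperone, was lower by -0.62 ± 0.16, and UTP20, a large processing factor, was higher by 0.96 ± 0.19. The median of the assembly genes was -0.06 under TMM in thalidomide against control and 0.14 with total counts, so it has no fixed direction there. Under TMM the assembly genes leaned lower in the combination: 44 of 52 were below 0 against control (median -0.28) and 44 against thalidomide (median -0.25). Against spermine NONOate 35 were (median -0.17). Of all genes 50.1%, 50% and 49.4% were below 0 in these comparisons. Total counts in place of TMM moved the median of all genes up by 0.22, 0.02 and 0.16 there, and assembly genes shift alike. How far they lie below 0 against control and against spermine NONOate therefore depends on scaling. Of 9 RNA polymerase I genes 1 was called lower and 1 higher.

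Among 12 regulators of mTOR and of TOP mRNAs, 5 were called higher and 4 lower. LARP1, which binds and stabilises TOP mRNAs, had 1.10 ± 0.19 (edgeR adjusted p = 2.49e-07), MTOR 0.65 ± 0.19 and TSC2, an inhibitor of mTOR complex 1, 0.89 ± 0.19; RHEB, an activator of that complex, was lower by -0.67 ± 0.20. Of 11 genes that respond to p53 in mammals 4 were called higher and none lower, among them MDM2 at 0.93 ± 0.23 (edgeR adjusted p = 0.000452), while CDKN1A was at -0.59 and was not called. These counts stand beside the 17.6% of all genes called higher and 14.9% called lower.

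**Figure D5:**
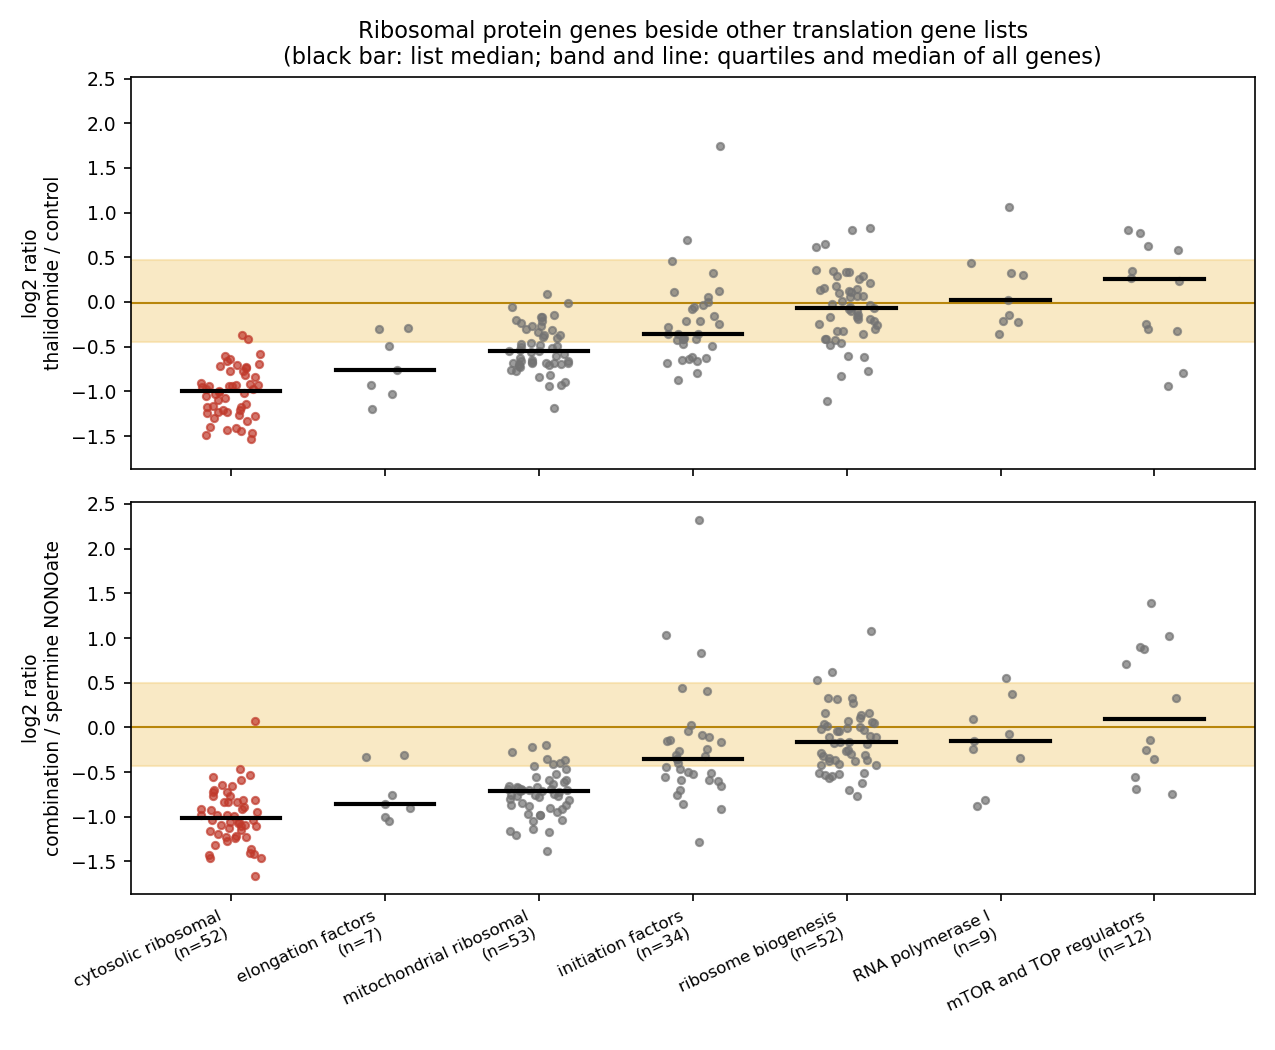
Log2 ratios of cytosolic ribosomal protein genes (red) and of 6 other gene lists (grey), each point 1 gene and the black bar the list's median. The upper panel shows thalidomide over control and the lower panel the combination over spermine NONOate; the band and line are the quartiles and median of all genes. The cytosolic list has the lowest median in both panels.

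Markers of some cell types moved in the same libraries. The 8 red cell markers found summed to 8676 CPM in the combination and 5256 CPM with thalidomide, against 24263 CPM with spermine NONOate and 26034 CPM in control, and none was at 0. The 8 lens markers summed to 1450 CPM in the combination and 655 CPM with thalidomide, against 2133 CPM with spermine NONOate and 3850 CPM in control. The 3 skeletal muscle markers summed to 176 CPM in the combination and 105 CPM with thalidomide, against 332 CPM with spermine NONOate and 450 CPM in control. The sums of these 3 lists were thus lower in both thalidomide libraries than in both libraries without the drug. The other lists below did not have that order. Liver and heart muscle sums were nevertheless lower with the drug in each pair without a shared library. For heart muscle they were 636 CPM with thalidomide against 645 CPM in control, and 484 CPM in the combination against 613 CPM with spermine NONOate. Sums follow the most abundant genes, and single markers did not all move alike. In the additive fit 6 of the 8 red cell markers were called lower and 1 higher. All 8 lens and all 3 skeletal muscle markers were called lower there, and of 5 neural markers 2 were called lower and 2 higher. Of 7 liver markers 4 were called lower and none higher, and of 5 heart muscle markers 2 lower and 1 higher. Of 3 cartilage markers 2 were called higher and none lower, and no leukocyte marker was called. Liver markers (7 genes) summed to 633 CPM in the combination, 158 CPM with thalidomide, 1627 CPM with spermine NONOate and 306 CPM in control. Over the 4 libraries the summed levels ran between 333 and 481 CPM for 3 cartilage markers, between 484 and 645 CPM for 5 heart muscle markers, between 646 and 955 CPM for 5 neural markers and between 80.4 and 116 CPM for 6 leukocyte markers. The part of these changes in the ribosomal protein values was not tested.

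In the authors' deposited table, unadjusted p-values under 0.05 were reached by 7 of 52 members in thalidomide against control, 5 in the combination against control and 4 in the combination against spermine NONOate, each time lower. Of all genes in the authors' deposited table, 1.72%, 1.14% and 1.67% were lower at that threshold in these comparisons, and 3.25%, 3.83% and 3.13% higher. RPL22L1, RPL29 and RPS21 were in all 3 sets; the smallest p in the authors' deposited table among members was 0.00965, for RPS21 in the combination against control. The authors' deposited table had no member under 0.05 in spermine NONOate against control or in the combination against thalidomide.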

How the data were processed

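RNA of whole chick embryos was sequenced in 4 libraries, 1 per group. The deposited read counts per gene are raw and use Ensembl release 75, per the file headers. TopHat2 2.0.8, DESeq and the galGal4 build are named in the submitters' processing notes, with no role or order; how reads were counted, and whether by strand, is not given in the sources used here. The authors' deposited fold change (ratio), its log2 and an unadjusted p-value were read for 1 check.

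Members were found by symbol, with 4 names of the other lists matched through RefSeq. The members and lists were chosen with earlier results of these data known. The genes named are the extremes of each comparison, the members with most reads in control and members with known roles; 1 gene that this rule names is not reported here. RPL23A and RPL26 fall outside that rule and were chosen after their values were seen, as were the genes named from the other lists. Counts were scaled by TMM (edgeR 4.0.16 in R 4.3.3), and ratios used 0.5 added reads with exact binomial intervals of the ratio (scipy 1.17.1 in Python 3.11.15). With 1 library a group these ratios have no test. The additive fit used glmQLFit and glmQLFTest with both agents as terms, on genes with at least 20 reads in at least 2 libraries, at an adjusted p under 0.05. Its residual spread is the departure of the 4 libraries from additivity, estimated with all genes together. Alternatives were total counts, upper quartile, DESeq2 1.42.0 size factors and test, other read minimums, a 1.5-fold rule and members left out. The additive fit was tested on simulated counts that had the same dispersion for every gene and no departure from additivity, unlike the data. Protein lengths and sequences were not used here.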

Additional observations from a re-analysis of the deposited data

Results flagged for a closer look

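For 7 members the difference made by spermine NONOate lay on opposite sides of 0 with and without thalidomide, by at least 0.2 on the log2 scale in both and with both counting intervals clear of 0. Each group is 1 library, so this difference was not tested. The value given is the thalidomide log2 ratio with spermine NONOate minus that without. It was -0.942 for RPS24, -0.809 for RPS7 and -0.539 for RPL14, whose levels were higher with spermine NONOate alone than in control and lower in the combination than with thalidomide. It was 0.647 for RPL15, 0.629 for RPLP0, 0.56 for RPS27A and 0.464 for RPS27L, which had the reverse order. All 7 kept opposite signs under each of the 6 scalings run, but the limit of 0.2 made this certain. A scaling shifts all genes of a comparison alike. The largest shift was 0.104 in spermine NONOate against control and 0.0645 in the combination against thalidomide. These 7 are 13.5% of the members, close to the 13.2% of all 12090 genes that met the same limits. Of the 1485 other genes with 40000 reads or more in all, 9.16% met them. Being near the share of all genes, the count is not read as a feature of ribosomal protein genes. Without the size limit, 30 of 52 members (57.7%) had opposite signs with both intervals clear of 0, as did 29.4% of all genes and 40.9% of the 1485 other genes with 40000 reads or more in all.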

How the results depend on the processing

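No paired analysis was possible because each group has 1 library, and for the same reason no library could be left out of a pair. A planned description by protein length was not run. With total counts, members called lower numbered 16 in thalidomide against control, 14 in the combination against control and 15 in the combination against spermine NONOate. Of all genes 4.61%, 2.09% and 3.85% were then called lower. At 1.5-fold the members called lower numbered 49, 51 and 47, where 18.9%, 15.6% and 17.9% of all genes were called lower. The medians with total counts were -0.80, -0.84 and -0.85, and with upper quartile -1.03, -1.05 and -1.04. TMM without the 50 most abundant genes gave -0.96 and -1.03 for the pairs with control. Holding the median of other abundant genes at a ratio of 1, chosen after seeing the data, gave -0.92, -0.90 and -0.94. It gave 20 members lower in the combination against control, beside 2.55% of all genes. There the share of higher genes among called genes was 87.7% with total counts and 84.0% with abundant genes held, against 70.8% under TMM. For spermine NONOate against control the medians were -0.0335 with total counts, -0.0536 with upper quartile, -0.0598 without the 50 genes and 0.0049 with abundant genes held. For the combination against thalidomide they were -0.0646 with total counts, -0.0394 with upper quartile and -0.0249 with abundant genes held. In the combination against spermine NONOate the median was -1.036 without paralogs and -1.031 with at least 1000 reads. The large minus small subunit difference was 0.0848 without paralogs and 0.089 by means in thalidomide against control, 0.008 and 0.0034 (1000 reads) in the combination against spermine NONOate, and by means -0.0064 for spermine NONOate against control, 0.0214 for the combination against control and -0.0676 for the combination against thalidomide. The cause was not tested, beyond the shift of scale. The additive fit called 50 members lower with thalidomide in all 5 alternatives, where 7.19% to 13.75% of all genes were lower. With spermine NONOate it called no member, where at most 196 genes were higher and 20 lower. Depth limits RPL3L among the members, and no group has a replicate.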
